A study of Mus musculus with 4 samples.

Results

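The regions described here are the sites of the mouse autosomes at which only 1 of 3 TIMELESS chromatin immunoprecipitation (ChIP) libraries had a peak, namely the library labelled TIMELESS replicate 3. Overlapping peaks of the 3 libraries on chromosomes 1 to 19 were merged wherever they shared at least 1 bp, which gave 97631 regions. Of these, 72342 (74.1%) held a peak of replicate 3 alone and met no peak of the input library, and they are called the replicate 3 only regions below. They were chosen by the peaks themselves, so their number and their lack of a peak in the other libraries describe the choice and are not findings. Each of them consists of exactly 1 peak.

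ChIP-seq, in which DNA bound by a protein is pulled down with an antibody and sequenced, was done on the hippocampus of adult C57BL/6N mice. An Abcam antibody to TIMELESS served for 3 libraries, and 1 further library was input chromatin that saw no antibody. No other treatment and no altered allele was labelled. Tissue was fixed with formaldehyde and sonicated, and the labels do not say whether the 3 libraries came from separate animals. For the library labelled TIMELESS replicate 3, however, the header names both the alignment and the peaks input_2, against sample_1 and sample_2 in the headers of the other TIMELESS libraries and input_1 in that of the input. The group of the labels was kept, and whether this library is an immunoprecipitate or an input was not tested. It is also the deepest, with 30454118 tags kept after removal of duplicate positions against 8425679 in replicate 1, 13572739 in replicate 2 and 14669253 in the input. It had 82454 autosomal peaks, against 6875, 23058 and 282. Every difference below therefore joins identity of the library and depth, which cannot be told apart.

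TIMELESS is known as a partner of the PERIOD and CRYPTOCHROME proteins of the circadian clock, and together with TIPIN it belongs to the complex that protects stalled replication forks. A ChIP-seq peak marks a stretch where sequenced fragments pile up above the surrounding level. Fragments also pile up without any antibody, for example in open chromatin or where copies of a repeat collapse onto 1 place of the reference, which is why studies set an input beside the immunoprecipitates. The study is titled for TIMELESS in plasticity of synapses, memory and cAMP signalling, and genes of those pathways are therefore included.

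The comparison set was the 15353 regions with peaks of replicate 1 or replicate 2 or both and none of replicate 3, of which 1653 came from replicate 1, 12490 from replicate 2 and 1210 from both. A further 9761 regions held replicate 3 together with another TIMELESS library, and 175 regions met an input peak and were left out. With 1 library against 2, the smallest p of an exact permutation test over libraries would be 0.333, so no test was run and all differences are descriptions. Intervals in parentheses are exact 95% intervals (Clopper-Pearson for shares, Poisson for densities). They cover counting error only, since neighbouring regions of 1 library are not replicates.

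The promoters met by the 2 sets differed in sequence. Promoter windows of 300 bases, from 250 before to 50 after the transcription start, were taken from RefSeq for 18 of the 19 autosomes, and the remaining one was not analysed here. The first 4 windows printed are those of protein-coding genes with the largest fold among windows of over 60% GC with at least 150 bases under a replicate 3 only region, chosen after their values were seen. They belong to Tmem267 (a transmembrane protein), Zbtb14 (a zinc finger transcription factor), Klhl2 (a kelch-like adaptor of ubiquitin ligases) and Rfx7 (a transcription factor of the RFX family). Olfr613, an olfactory receptor gene, shows a promoter of low GC under such a region. A long stretch of its window recurs unchanged in the windows of Gm52669 and Gm30122, which also lie under such regions. Bpifb4, of the BPI fold family, and Cyp2ab1, a cytochrome P450, show promoters under regions of replicates 1 or 2 only. The sequences are from RefSeq on GRCm38.p6, the build of the files (mm10), and run 5′ to 3′ on the strand of the gene, with each CG dinucleotide in capitals.
Tmem267, chr13:119488223-119488522, plus strand: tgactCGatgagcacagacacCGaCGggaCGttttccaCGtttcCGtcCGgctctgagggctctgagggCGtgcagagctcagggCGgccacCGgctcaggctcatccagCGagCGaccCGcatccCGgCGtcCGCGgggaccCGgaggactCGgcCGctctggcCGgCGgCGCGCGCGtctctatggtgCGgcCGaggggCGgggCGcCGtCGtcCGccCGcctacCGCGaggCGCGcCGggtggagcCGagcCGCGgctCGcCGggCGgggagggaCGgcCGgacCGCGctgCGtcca
Zbtb14, chr17:69383554-69383853, plus strand: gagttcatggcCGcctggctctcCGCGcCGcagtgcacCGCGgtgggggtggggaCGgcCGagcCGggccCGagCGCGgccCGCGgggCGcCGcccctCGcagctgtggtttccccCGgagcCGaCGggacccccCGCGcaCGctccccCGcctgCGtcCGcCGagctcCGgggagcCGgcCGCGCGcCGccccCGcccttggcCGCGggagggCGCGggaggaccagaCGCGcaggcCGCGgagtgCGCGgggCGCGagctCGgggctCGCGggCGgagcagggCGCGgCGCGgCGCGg
Klhl2, chr8:64849875-64850174, minus strand: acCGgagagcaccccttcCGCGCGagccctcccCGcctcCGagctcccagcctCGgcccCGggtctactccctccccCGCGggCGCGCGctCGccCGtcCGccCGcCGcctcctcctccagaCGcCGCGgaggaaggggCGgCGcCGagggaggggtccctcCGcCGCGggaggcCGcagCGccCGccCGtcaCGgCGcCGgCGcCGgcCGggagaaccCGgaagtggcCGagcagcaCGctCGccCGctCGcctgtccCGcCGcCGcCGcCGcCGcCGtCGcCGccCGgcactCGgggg
Rfx7, chr9:72531990-72532289, plus strand: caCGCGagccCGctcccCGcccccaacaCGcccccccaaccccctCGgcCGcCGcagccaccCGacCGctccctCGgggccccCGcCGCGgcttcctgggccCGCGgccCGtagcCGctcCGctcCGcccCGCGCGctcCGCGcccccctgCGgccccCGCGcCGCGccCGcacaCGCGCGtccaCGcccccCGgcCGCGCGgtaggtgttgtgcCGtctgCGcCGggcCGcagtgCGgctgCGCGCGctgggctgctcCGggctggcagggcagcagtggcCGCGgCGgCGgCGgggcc
Olfr613, chr7:103550118-103550417, plus strand: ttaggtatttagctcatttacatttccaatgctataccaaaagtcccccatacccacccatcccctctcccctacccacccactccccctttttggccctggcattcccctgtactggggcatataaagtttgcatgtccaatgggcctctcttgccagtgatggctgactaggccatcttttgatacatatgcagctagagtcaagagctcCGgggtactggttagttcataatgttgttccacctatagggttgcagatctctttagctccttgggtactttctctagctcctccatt
Bpifb4, chr2:153940612-153940911, plus strand: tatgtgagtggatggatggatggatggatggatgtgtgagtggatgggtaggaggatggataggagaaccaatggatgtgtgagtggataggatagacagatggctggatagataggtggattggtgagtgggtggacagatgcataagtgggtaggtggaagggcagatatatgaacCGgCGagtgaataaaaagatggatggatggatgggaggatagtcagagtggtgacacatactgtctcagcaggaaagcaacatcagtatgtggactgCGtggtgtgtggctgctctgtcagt
Cyp2ab1, chr16:20325355-20325654, minus strand: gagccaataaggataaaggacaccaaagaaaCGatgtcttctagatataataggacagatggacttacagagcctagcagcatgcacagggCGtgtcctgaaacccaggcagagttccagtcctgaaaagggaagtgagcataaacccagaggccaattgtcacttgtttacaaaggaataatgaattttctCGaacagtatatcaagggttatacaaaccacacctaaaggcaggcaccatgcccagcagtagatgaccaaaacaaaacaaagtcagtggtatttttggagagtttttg

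The Tmem267 window held 50 CG dinucleotides and 76.0% GC, and the replicate 3 only region over 250 of its bases had a fold enrichment of 6.83 and a pileup of 77 fragments. Fold enrichment is the authors' ratio of the pileup at the summit to the background of the same library. The Zbtb14 window held 56 CG dinucleotides and 84.0% GC and lay wholly within a region of 529 bp with a fold of 6.69. Klhl2 (54 CG dinucleotides, 82.7% GC) had a fold of 5.54 and Rfx7 (53, 84.7%) one of 5.35. The Olfr613 window held 1 CG dinucleotide and 48.3% GC under a fold of 5.35. The Bpifb4 and Cyp2ab1 windows held 3 CG dinucleotides each, with 49.0% and 43.0% GC, and the folds there were 4.45 and 5.47.

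Promoters were overlapped by few regions of either kind, but the promoters concerned differed in composition. Of 31395 promoter windows of protein-coding and long noncoding RNA genes, 134 (0.427%) overlapped a replicate 3 only region and 14 (0.0446%) overlapped a region of replicates 1 or 2 only. Those 134 windows belonged to 121 genes and to 111 of 69744 replicate 3 only regions on these chromosomes (0.159%, 0.131 to 0.192). In the comparison set it was 13 of 14782 regions (0.0879%, 0.0468 to 0.150). The median GC content was 73.8% under replicate 3 only regions, 43.7% under regions of replicates 1 or 2 only, 47.8% under regions of replicate 3 with another library and 53.0% over all windows. The 5 windows under input peaks had a median of 49.7%.

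The replicate 3 only regions were concentrated at the promoters richest in G and C. At 80% GC or more, 42 of 340 windows were overlapped (12.4%, 9.05 to 16.3), and at 70% to 80% it was 36 of 2751 (1.31%, 0.918 to 1.81). Between 50% and 60% GC the share was 8 of 9841 (0.0813%). Regions of replicates 1 or 2 only overlapped 0 of the 3091 windows of at least 70% GC (0%, 0 to 0.119). Regions of replicate 3 with another library likewise overlapped 0 of them. A second group of 32 windows lay between 40% and 50% GC, in the class that also held 12 of the 14 windows of the comparison set. Some of these 32 share long stretches of sequence, such as those of Olfr613, Gm52669 and Gm30122. Repeats were not annotated, so how many are copies of a repeat was not tested.

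**Figure D1:**
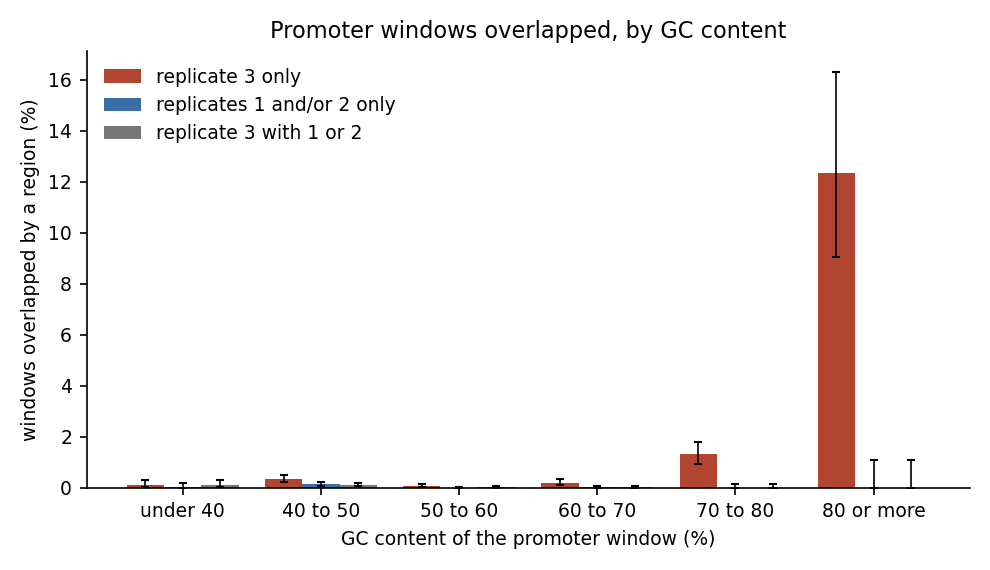
Share of promoter windows (y axis, %) overlapped by regions of replicate 3 only, of replicates 1 and/or 2 only, and of replicate 3 with another library, by GC content of the window (x axis, %). Bars are shares and whiskers exact 95% intervals for counting error, and the share under replicate 3 only regions reaches 12.4% in the class of 80% GC or more, where the other bars are at 0.

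Among protein-coding genes alone, 86 promoter windows of 75 genes lay under 74 replicate 3 only regions, with a median GC content of 78.0% and a median of 45 CG dinucleotides, against 57.0% and 14 over all 20084 coding windows. Over 60% GC were 76 of the 86 (88.4%, 79.7 to 94.3), against 39.2% of all coding windows. The 6 coding windows of the comparison set had a median of 47.5% GC and 3 CG dinucleotides. The genes concerned included Larp1 (an RNA-binding regulator of translation, 85.3% GC), Tox3 (an HMG-box protein, 85.3%), Med13l (a subunit of the Mediator kinase module, 84.7%) and Wnt4 (a secreted signalling protein, 84.3%). These 4 were taken after their values were seen, as those of known function with the most GC. The 10 coding windows of under 60% GC were mostly of predicted or uncharacterised genes, apart from Olfr613, Clec2g, Hexdc and Rex2. The regions over these promoters had fold enrichments from 2.72 to 6.83 and a median of 4.20 over 72 of them.

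The windows were rich in one of 5 short motifs searched. The sequence CCGCCC, the core of the GC box, was searched on both strands and stood in 77 of the 86 coding windows (89.5%, 81.1 to 95.1), against 47.0% of all coding windows. The canonical E-box CACGTG, bound by CLOCK and BMAL1, stood in 8.14% (3.34 to 16.1) against 7.89%, and the cAMP response element TGACGTCA in 3.49% (0.725 to 9.86) against 2.30%. TATAAA stood in 5.81% (1.91 to 13) against 12.7%, and the octamer ATTTGCAT in 0 of the 86 windows against 1.67%. CACGTG and TGACGTCA each hold a CG dinucleotide, CCGCCC overlaps GC-rich sequence by its composition, and a match is a description of the letters and not of a bound site. GC content was not held fixed in these shares.

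Within 2 kb of transcription starts of protein-coding genes, both kinds of region were sparser than at 5 to 10 kb upstream. Counted per kb and per 10000 regions, replicate 3 only regions fell from 44.8 at 5 to 10 kb upstream, their highest bin, to 23.3 at 0.5 to 2 kb upstream. They had 14.5 in the 1 kb centred on the start and 11.9 at 0.5 to 2 kb downstream. The comparison set had 56.1, 41.9, 12.2 and 25.3 in the same bins. Farther upstream the counts also fell, to 35.7 and 42.1 at 10 to 20 kb and 22.0 and 24.9 at 20 to 50 kb. The bin centred on the start held 0.145% (0.118 to 0.176) of replicate 3 only regions and 0.122% (0.0722 to 0.192) of the comparison set, intervals that overlap. At 0.5 to 2 kb downstream the shares were 0.178% (0.148 to 0.212) and 0.379% (0.286 to 0.492), and at the same distance upstream 0.350% (0.307 to 0.397) and 0.629% (0.508 to 0.770).

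Over whole chromosomes, replicate 3 only regions lay mainly where protein-coding genes are few. In 1 Mb windows (n = 2375), they averaged 30.002 ± 17.5 (SD over windows) with a range of 0 to 115. The 269 windows with no protein-coding gene had a mean of 48.1, windows with 1 to 5 genes 34.8, with 6 to 15 genes 24.0, with 16 to 30 genes 17.8 and with over 30 genes 19.8. The comparison set declined less, from 7.77 through 6.75, 5.94 and 5.67 to 4.58. Replicate 3 only regions were thus 2.70 times as dense in gene-free windows as in windows with 16 to 30 genes, and the comparison set 1.37 times. The 282 input peaks were not most frequent in gene-free windows, with means of 0.0669, 0.0579, 0.156, 0.0918 and 0.0556 per window. The gradient held when replicate 3 was cut to as many peaks as replicate 2, with ratios of 2.55 and 1.46. This cut, here and below, kept the strongest replicate 3 peaks by −log10 p and is not a match for depth. Sites of replicates 1 or 2 whose replicate 3 peak fell out then entered the comparison set.

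**Figure D2:**
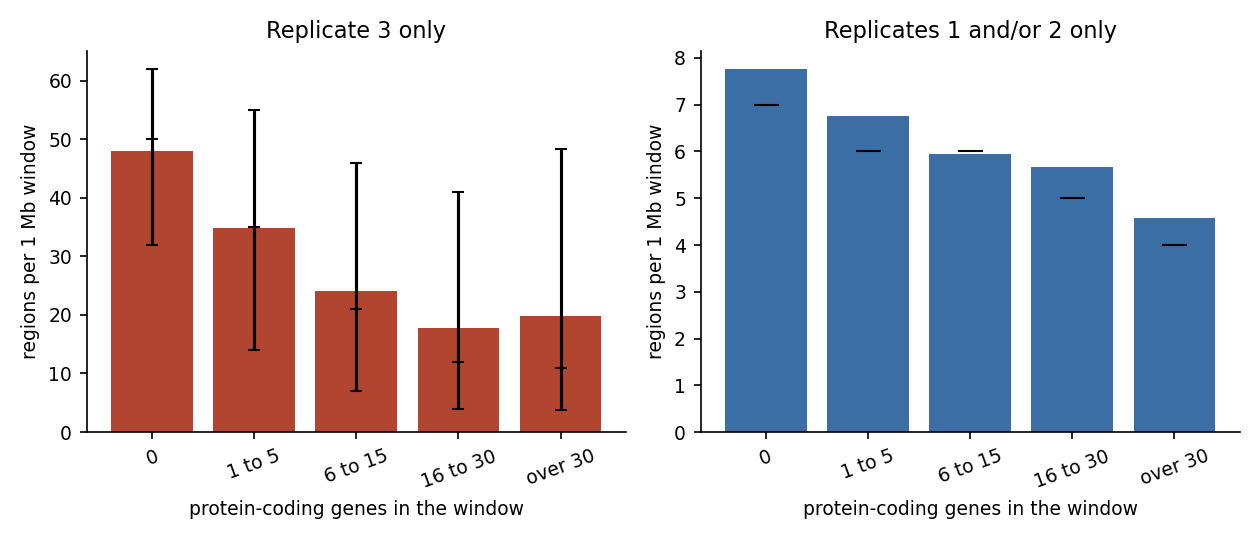
Mean number of regions per 1 Mb window (bars, y axis) by the number of protein-coding genes in the window (x axis), for replicate 3 only regions on the left and regions of replicates 1 and/or 2 only on the right. Dashes are medians, whiskers on the left run from the 10th to the 90th percentile of windows, and the left bars fall from 48.1 to 17.8 and 19.8 while the right bars fall from 7.77 to 4.58.

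Across windows, Spearman's rho between regions and protein-coding genes was −0.54 for replicate 3 only regions and −0.26 for the comparison set, over the same 2375 windows, which share base composition and mappability between both sets. Counts of the sets correlated with each other, with rho 0.442. Chromosomes showed the same order. Replicate 3 only regions were densest on chromosome 3, with 36.8 per Mb at 6.27 coding genes per Mb, and sparsest on chromosome 11, with 19.7 per Mb at 13.5 genes per Mb, where the comparison set had 7.14 and 5.23. Over the 19 chromosomes rho with gene density was −0.71 for replicate 3 only regions and −0.37 for the comparison set. In the last 5 Mb of the covered span of each chromosome lay 3.03% (2.91 to 3.16) of replicate 3 only regions and 4.38% (4.07 to 4.72) of the comparison set, and in the first 5 Mb 4.59% and 5.15%.

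The windows with most replicate 3 only regions included clusters of duplicated genes and gene deserts. On chromosome 5 the windows 94000001 to 95000000 and 95000001 to 96000000 held 115 and 109, together with 27 and 28 regions of the comparison set, and they contain Pramel37 to Pramel50, relatives of the germ-line gene PRAME. The window 15000001 to 16000000 on chromosome 7 held 87, with the homeobox genes Obox1, Obox2, Obox3, Obox5 and Obox6, and 20000001 to 21000000 on chromosome 8 held 85, with the defensin gene Defb33. That last window also held 10 of the 282 input peaks. The window 64000001 to 65000000 on chromosome 3 held 79 and contains the vomeronasal receptor genes Vmn2r1 to Vmn2r7. No protein-coding gene stood in the windows from 85000001 on chromosome 5 (79 regions), 44000001 on chromosome 6 (78) and 48000001 on chromosome 1 (73). Of all windows, 3 held no replicate 3 only region. They were 142000001 to 143000000 on chromosome 5 with Actb (beta-actin) and 7 regions of the comparison set, 102000001 to 103000000 on chromosome 11 with 35 coding genes including Gfap and Grn, and 107000001 to 108000000 on chromosome 11 with Bptf and Prkca. Reads of near-identical gene copies can be placed at any of them, and how such reads were treated is not given in the sources used here, so counts in these families are uncertain.

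Of 20 gene lists, the 2 families of sensory receptors had the highest densities of replicate 3 only regions. Around olfactory receptor genes, taken as gene bodies with 10 kb on both sides, replicate 3 only regions had a density of 45.0 per Mb (42.1 to 48.1), against 30.1 over the covered span of the autosomes, while the comparison set had 6.46 (5.39 to 7.68) against 6.39. Around vomeronasal receptor genes, which detect pheromones, the densities were 50.2 (46.0 to 54.8) and 10.2 (8.34 to 12.3), so that both sets were above their autosomal level there. Relative to all windows, the density around olfactory receptor genes was 1.501 times for replicate 3 only regions and 1.01 times for the comparison set. With as many replicate 3 peaks as replicate 2 these values came closer, at 1.27 and 1.139. The coding bodies themselves are mostly short, with a median of 0.95 kb for olfactory receptors, and 20 of 1104 (1.81%) held a replicate 3 only region. The share was 23.2% of all protein-coding genes and 0.0484% (1 gene) of those of up to 1.70 kb. The olfactory receptor genes that held one were thus nearly all longer than 1.70 kb, so neither share is a matched level. They were led by Olfr687 (48.7 kb) and Olfr646 (9.90 kb) with 4 each. Among vomeronasal receptors, with a median of 0.96 kb, 68 of 352 (19.3%) held one. Those were led by Vmn2r1 (143 kb) with 13 and Vmn2r81 (46.8 kb) with 7, which are also far above the median length.

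**Figure D3:**
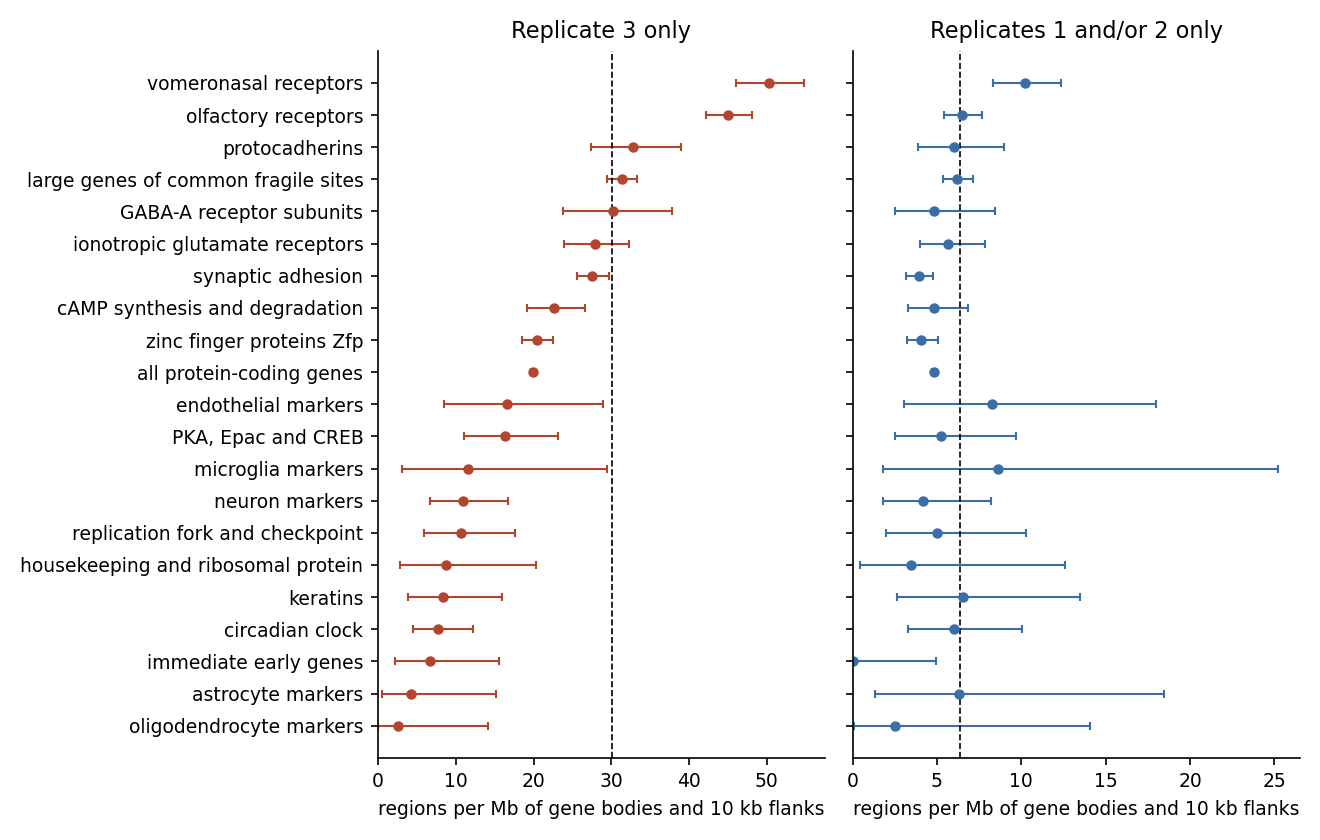
Density of regions (x axis, per Mb of gene bodies with 10 kb on both sides) for 20 gene lists and all protein-coding genes (y axis), for replicate 3 only regions on the left and regions of replicates 1 and/or 2 only on the right. Points are densities, whiskers exact 95% Poisson intervals and dashed lines the density over the autosomes (30.1 and 6.39 per Mb); on the left the vomeronasal and olfactory receptors lie highest, at 50.2 and 45.0.

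Inside genes, the replicate 3 only regions were somewhat rarer than the comparison set. In protein-coding gene bodies lay 18424 of them (25.5%, 25.2 to 25.8) against 28.7% (28 to 29.4), and the share was 29.8% for replicate 1 only, 28.3% for replicate 2 only, 31.2% for replicates 1 and 2 and 26.2% for replicate 3 with another library. The share thus lay below that of each set without replicate 3, by more than the gap between replicates 1 and 2. It turned when replicate 3 was cut to its strongest peaks, as many as replicate 2 has, at 28.98% against 27.6%. Near coding gene ends, within 1 kb of the start or the end, were 402 (0.556%, 0.503 to 0.613) against 138 (0.899%, 0.756 to 1.06), with 1.03% and 0.881% for replicates 1 and 2 only. Long noncoding RNA genes held 7.02% (6.84 to 7.21) against 8.43% (8.0 to 8.89). No replicate 3 only region met any of 1136 miRNA, 1286 snoRNA or 391 tRNA genes, which are short, and neither did a region of the comparison set. Of 931 snRNA genes, which are also short, 5 (0.537%) held a replicate 3 only region and 0 a region of the comparison set.

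A total of 4785 of 20661 protein-coding genes (23.2%) held a replicate 3 only region, and 2588 (12.5%) held a region of the comparison set. The share rose with gene length, from 1 of 2067 genes of up to 1.70 kb (0.0484%) to 1774 of 2066 genes of at least 109 kb (85.9%, 84.3 to 87.3), where the comparison set reached 59.3% (57.1 to 61.4). Per Mb of gene body, replicate 3 only regions rose from 4.24 in genes of 1.70 to 4.39 kb to 14.8 in those of 57.9 to 109 kb and 23.9 in the longest class, and the comparison set from 1.26 to 3.97 and 5.13.

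**Figure D4:**
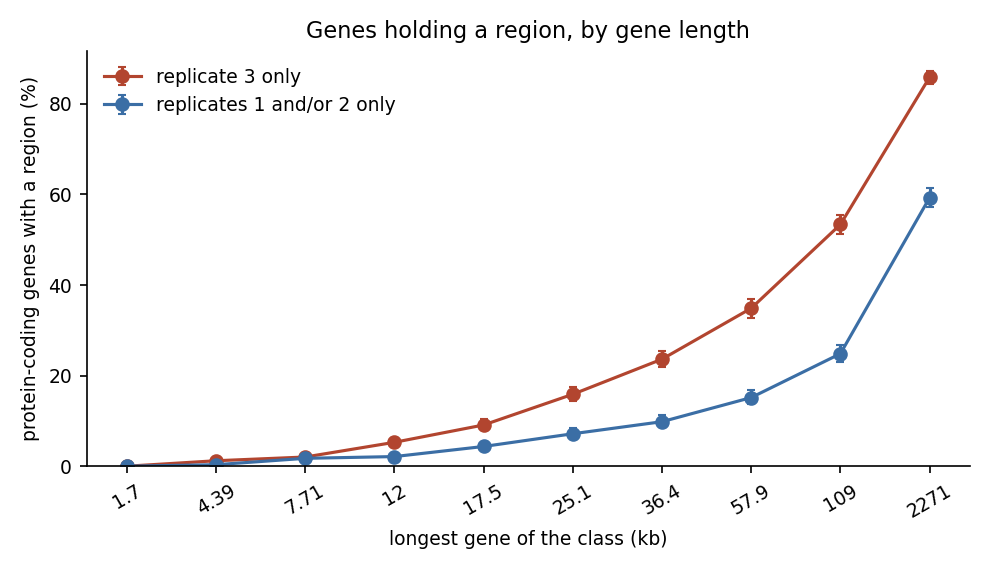
Share of protein-coding genes that hold a region (y axis, %) in 10 classes of gene length, each given by its longest gene (x axis, kb), for replicate 3 only regions and regions of replicates 1 and/or 2 only. Whiskers are exact 95% intervals, and in the longest class the shares are 85.9% and 59.3%.

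The genes with most replicate 3 only regions were very long genes. Cntnap2, a neurexin relative, held 100 over 2241 kb with fold enrichments from 2.33 to 7.96 and a median of 3.82, beside 17 regions of the comparison set. Ptprd, a presynaptic receptor phosphatase, held 91 and 11, and Lrp1b, of the LDL receptor family, 89 and 12. Pcdh15, a protocadherin of the hair cell tip link, held 75, and Dlg2, the postsynaptic scaffold PSD-93, 72. Among the first 15 were also Naaladl2 (73), Agbl4 (70), Nkain2 (67), Cdh12 (65), Macrod2 (62), Lingo2 (61), Ccser1 (61), Galntl6 (58) and Gpc5 (57). Their densities lay between 3.10 per 100 kb in Macrod2 and 5.65 per 100 kb in Cdh12. The autosomal level was 30.1 per Mb, which is in a larger unit of length, so all 15 lay above it. These genes were chosen for holding most regions, which favours dense genes. The comparison set varied more between these genes. Lingo2, a leucine-rich repeat protein of neurons, held 61 replicate 3 only regions and 1 of the comparison set, while Dlg2 held 72 and 16 and Macrod2 62 and 14. Over the autosomes the ratio was 4.71.

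Among genes of at least 50 kb with 5 or more replicate 3 only regions, the densest were much shorter. Trim30a, of the TRIM family, held 9 in 56.2 kb (16 per 100 kb) with none of the comparison set. Sfi1, a centrosomal protein, had 14.0 per 100 kb, but it also held 13 regions shared between replicate 3 and another library in its 71.5 kb, and the folds of its replicate 3 only regions were low, from 1.70 to 2.62. Slco1a5, an organic anion transporter, had 12.4 per 100 kb with folds of up to 7.19, and Sdhaf3, an assembly factor of succinate dehydrogenase, 11.9. Triml1, Gm6351, D3Ertd751e, Pate2, Zfp458 and Ccdc7b followed with 11.1 to 11.8 per 100 kb. At the other end, the longest protein-coding gene with no replicate 3 only region was Camta1, a calmodulin-binding transcription activator of 802 kb, which held 5 regions of the comparison set and 2 shared ones. Next came Zfp536 (456 kb), Grik4 (a kainate receptor subunit, 427 kb), Myt1l (a neuronal transcription factor, 396 kb) and Msi2 (an RNA-binding protein, 379 kb), with 3, 2, 2 and 0 regions of the comparison set.

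Counts for gene lists are to be read against the share of all protein-coding genes (23.2% with a replicate 3 only region and 12.5% with one of the comparison set) and against gene length. A length class set beside a list is only a rough guide, since it does not match the mix of lengths within the list. Of 25 genes of cAMP synthesis and degradation, 15 (60%) held a replicate 3 only region and 13 (52%) a region of the comparison set, at a median length of 151 kb, where 85.9% and 59.3% of all genes of at least 109 kb did. Their density was 22.7 per Mb (19.2 to 26.6) against 19.9 for all protein-coding genes. Pde4d held 39, Pde1c 29 and Pde4b 9, all phosphodiesterases that degrade cAMP or cGMP. In Pde4b the 9 folds ran from 3.06 to 9.55 with a median of 4.59, at 1.73 per 100 kb. Downstream of cAMP, 11 of 19 genes for protein kinase A, for Epac and for CREB (57.9%) held one at a median length of 71.4 kb, where 53.4% of genes of 57.9 to 109 kb did. They were led by the kinase inhibitor gene Pkib with 7 and the transcription factor gene Creb1 with 5, against 6 with a region of the comparison set. Of 25 clock genes, 6 (24%) did at a median length of 33.6 kb, where 23.7% of genes of 25.1 to 36.4 kb did. They were led by Rora with 7, Clock with 4 and Npas2 with 3. The density was 7.71 per Mb (4.57 to 12.2), against 19.9 for all protein-coding genes. The comparison set had 5.99 (3.28 to 10.1), against 4.82 for all protein-coding genes. Low replicate 3 only densities were also found for oligodendrocyte (2.53) and astrocyte markers (4.21) and for immediate early (6.67), keratin (8.42) and housekeeping genes (8.71). Replication fork and checkpoint genes (10.7), neuron markers (10.9) and microglia markers (11.5) followed. Of 32 genes of the replication fork and checkpoint, 4 (12.5%) did, led by the checkpoint kinase gene Atr with 3, at a median length of 18.1 kb, where 15.9% of genes of 17.5 to 25.1 kb did. Timeless itself held no region of any of these sets.

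Lists of long genes held replicate 3 only regions in most cases, as did 85.9% of all protein-coding genes of at least 109 kb. All 22 large genes of common fragile sites, which are hard to replicate, held a replicate 3 only region and also a region of the comparison set, at a median length of 1285 kb and densities of 31.3 (29.4 to 33.4) and 6.21 per Mb. Synaptic adhesion genes held one in 23 of 31 cases (74.2%, 55.4 to 88.1) at a median length of 791 kb. Ionotropic glutamate receptor genes did in 12 of 17 (70.6%, 44.0 to 89.7) at 319 kb. GABA-A receptor subunit genes did in 8 of 12 (66.7%, 34.9 to 90.1) at 115 kb, a median close to the lower bound of that length class. All 3 intervals include the 85.9% of the class, but they are wide and the class spans 109 to 2271 kb. No level matched to the lengths in each list was taken, so this does not show that the shares are equal. Cntnap2 (100) led the first of these lists and Gabrg3 (35) the last. For synaptic adhesion the densities were 27.6 (25.6 to 29.7) and 3.92 (3.19 to 4.77) per Mb. Of 67 protocadherin genes 33 held one at a median length of 86.1 kb, where 53.4% of genes of 57.9 to 109 kb did, but genes of the clusters overlap and share regions. Of 388 Zfp genes 97 (25%) did, at a median length of 17.98 kb, where 15.9% of genes of 17.5 to 25.1 kb did. They were led by Zfp804b with 31, a gene of 575 kb.

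Immediate early, housekeeping and keratin genes are short by their median lengths, and 2.08% of all genes of 4.39 to 7.71 kb held a replicate 3 only region. Of 21 immediate early genes only Bdnf (4.76%) did, with 1, and of 22 housekeeping and ribosomal protein genes only Sdha (4.55%), with 2, at median lengths of 5.30 and 4.49 kb. Their densities with flanks were 6.67 (2.17 to 15.6) and 8.71 (2.83 to 20.3) per Mb. Of the 53 keratin genes, none did and 4 held a region of the comparison set. Markers of hippocampal cell types held one in 4 of 16 genes for neurons at a median length of 45.0 kb, where 34.9% of genes of 36.4 to 57.9 kb did (Map2 and Syt1 with 6 each), 1 of 8 for astrocytes (Slc1a3), 1 of 8 for oligodendrocytes (Mbp), 3 of 8 for microglia (P2ry12, Cx3cr1 and Itgam) and 3 of 7 for endothelium (Tek with 8). ChIP peaks do not measure expression, so these lists are no check of the tissue.

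The replicate 3 only regions were longer than the comparison set, and as deposited they lay closer together. Their median length was 399 bp against 324 bp, with 309 bp for replicate 1 only and 317 bp for replicate 2 only, although the shortest possible peak, the fragment length set in the header, was smallest in replicate 3 (260 bp against 286 and 265). At least 1 kb long were 4466 of them (6.17%) against 30 (0.195%). They covered 35.5 Mb against 5.62 Mb. The median distance between neighbouring midpoints was 15.5 kb against 97.3 kb, which their number alone would shorten. It turned with as many replicate 3 peaks as replicate 2, at 70.1 kb against 67.0 kb, and without replicate 2 it was 14.0 kb against 519 kb. Relative to the mean spacing, the median was 0.468 against 0.622, so replicate 3 only regions were more unevenly spread. Spacings under 5 kb made up 26.3% against 3.89%. The longest region, at chr11:55954435-55956789, spanned 2355 bp with a fold of 4.36 and lay 68.2 kb from Nmur2, and another of 2311 bp lay in Sprr2a1, a keratinocyte gene.

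A peak of another TIMELESS library was usually some way off. The median distance to the nearest peak of replicate 1 or 2 was 23.3 kb, with 4.76% (4.61 to 4.92) within 1 kb, 30.8% (30.4 to 31.1) within 10 kb and 90.04% within 100 kb. The share within 10 kb fell to 9.06% without replicate 2, the library with more peaks of the pair. It was 11.4% at −log10 q of at least 5 and 5.54% at a fold of at least 5. Those thresholds cut all TIMELESS libraries, so neighbouring peaks of replicates 1 and 2 were removed as well. With replicates 1 and 2 uncut, the share was 25.8% in the strongest of 5 equal classes of replicate 3 only regions by −log10 q. Close to the boundary of the choice, 315 replicate 3 only regions lay within 100 bp of such a peak, the nearest at 1 bp in Cntn6 on chromosome 6 with a fold of 2.91 and a pileup of 20. On the other side, 437 of 9955 shared replicate 3 peaks overlapped by less than 100 bp, with the smallest overlap 1 bp in Catspere1 on chromosome 1, where the fold was 3.95 and the pileup 20.

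Strong peaks of replicate 3 were more often shared with another library than weak ones. These strength values were part of the choice and are given as a description. The authors' fold enrichment had a median of 3.64 (range 1.70 to 16.1) against 3.62 for shared replicate 3 peaks, the pileup a median of 24 against 31 and −log10 q a median of 5.79 against 6.88. Of all replicate 3 peaks off the input, 87.9% met no other TIMELESS library. This share was 86.8% at −log10 q of at least 5, 79.9% at 10, 61.8% at 20 and 25.5% at 50 (66 of 259 peaks), and 30.5% at a fold of at least 12 (32 of 105). When the pileup was scaled by the ratio of tags kept (0.446 for replicate 2), 88.7% of the regions reached the lowest pileup of a replicate 2 peak (8), 15.6% its median (15) and 2.27% (1643 regions) its 90th percentile (22).

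**Figure D5:**
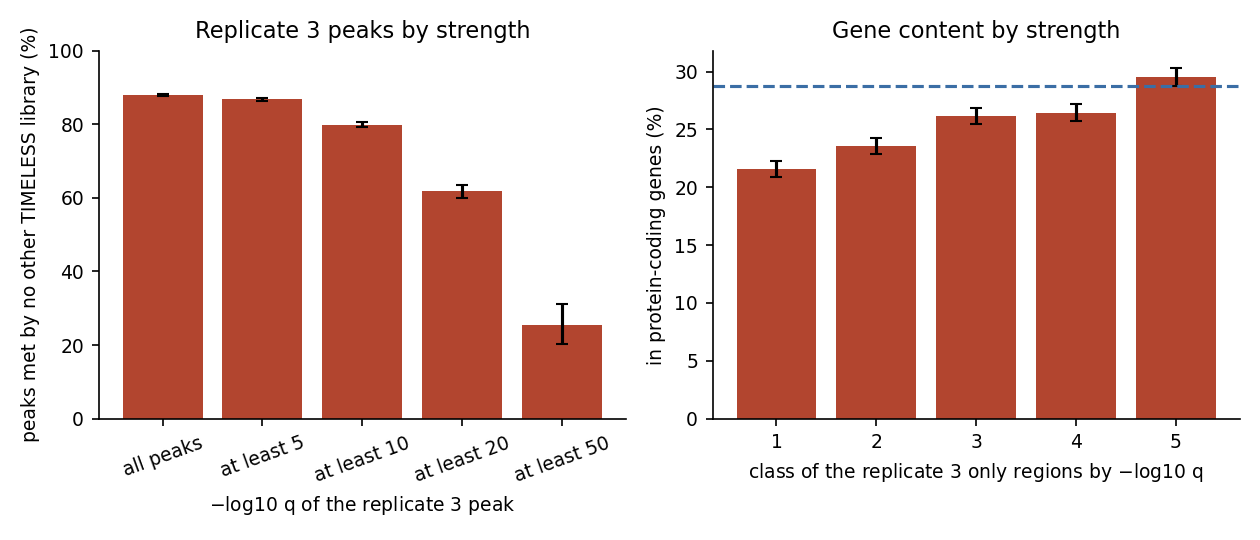
Left, the share of replicate 3 peaks that met no peak of replicates 1 or 2 (y axis, %) among all peaks and at rising −log10 q (x axis), which falls from 87.9% to 25.5%. Right, the share of replicate 3 only regions in protein-coding genes (y axis, %) in 5 classes of equal size by −log10 q (x axis), rising from 21.6% to 29.5%, with the 28.7% of the comparison set as a dashed line; whiskers are exact 95% intervals.

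Gene content changed with strength. In 5 classes of equal size from the weakest to the strongest −log10 q, the share of replicate 3 only regions in protein-coding genes was 21.6%, 23.6%, 26.2%, 26.5% and 29.5% (28.8 to 30.3), so that the strongest class was near the 28.7% of the comparison set. The median length rose from 330 to 584 bp, and the share within 10 kb of a peak of replicate 1 or 2 fell from 38.0% to 25.8%. By length, the share in protein-coding genes was 25.6% under 400 bp, 24.95% at 400 to 700 bp, 24.8% at 700 to 1000 bp and 28.1% (26.7 to 29.4) at 1 kb or more.

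A few replicate 3 only regions were strong peaks. The largest fold, 16.1 with a pileup of 118, was at chr5:50435776-50436273, 377 kb from Adgra3 and 9.77 kb from the nearest peak of replicate 1 or 2, and its pileup scaled to the tags of replicate 2 was 52.6, above the 90th percentile of replicate 2 peaks. A region in Snap91, which encodes the clathrin adaptor AP180 of synaptic vesicle recycling, had a fold of 15.5 and a scaled pileup of 37.9. A region in Slc51b, a subunit of a bile acid transporter, had a fold of 15.2 and lay 512 kb from the nearest peak of replicate 1 or 2. Of the remaining regions among the first 10 by fold, 1 lay in Psma8 and the others outside protein-coding genes, nearest to Magi2, Ncam2, Rspo3, Rps29, Flrt2 and Cdh6, with folds of 13.5 to 15.3.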

How the data were processed

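The labels give 3 TIMELESS libraries and 1 input library, and the submitters' processing notes list the build mm10 with Bowtie2 2.4, SAMtools 1.14, deepTools 2.0 and MACS2 2.1.1. MACS 2.1.2 is the caller named per the file headers, run on each library alone, without a control, at a q cutoff of 0.05, with 101 bp single-end tags, 1 tag kept per position and a background range of 10 kb. Aligner settings are not given in the sources used here. The deposited pileup is the signal of fragments at the summit, not scaled for depth, per the file headers. The deposited fold enrichment is the authors' ratio of that pileup to the background of the same library. The deposited −log10 p and −log10 q are the authors' values for each peak. Peak starts, ends and lengths were used as deposited.

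Peaks of the TIMELESS libraries were merged at 1 bp of overlap with Python 3.11.15, numpy 2.4.6, pandas 2.3.3 and scipy 1.17.1, and the interval steps were tested on simulated data. Gene positions were those of RefSeq on GRCm38.p6, without strand, exons or introns, so exonic and intronic sites were not told apart. Promoter windows with strand covered 18 autosomes. A region lay in a gene when it overlapped the body by 1 bp, and list densities count midpoints in bodies with 10 kb on both sides. Of 2249 entries in 20 gene lists, 2237 matched an autosomal coding gene.

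The regions, the gene lists and the comparisons were chosen with earlier results of these data known. Genes were named by a rule, which took the 15 coding genes with most regions, the 10 of at least 50 kb and with at least 5 regions that had most per 100 kb, the 5 longest with none, up to 3 per list, and Timeless and Pde4b. Regions were named for the largest fold, the greatest width, and the smallest distance to or overlap with a peak of replicate 1 or 2. Windows and promoters named were chosen after their values were seen. One item taken by the rule is not reported here.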

Additional observations from a re-analysis of the deposited data

Results flagged for a closer look

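Outside the autosomes, chromosome X held 4555 regions of replicate 3 only (27.1 per Mb), against 522 of replicates 1 or 2 only and 7 input peaks. Chromosome Y held 1091 regions of replicate 3 only (12 per Mb), against 309 of replicates 1 or 2 only and 17 input peaks. On a sequence that the files name ribosomic, replicate 3 had 20 peaks, replicates 1 and 2 had 11 and 17, and the input 6. These counts of replicate 3 are above those of the input, which also had fewer tags kept (14669253 against 30454118). On the sequence named M the order was the other way, with 2 peaks in replicate 3 and 6 in the input, beside 5 and 4 in replicates 1 and 2. The sequences enter no comparison of the report. X and Y were added to it only as an alternative.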

How the results depend on the processing

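Stricter thresholds and a smaller replicate 3 changed most values. The thresholds were applied to all TIMELESS libraries before merging. A site could thus become a replicate 3 only region when a weaker peak of another library dropped out. The smaller replicate 3 kept its strongest peaks by −log10 p, and no other library was cut. The comparison set then grew from 15353 to 21275 regions, since sites with a weaker replicate 3 peak entered it. At −log10 q of at least 5, at fold of at least 5, and with only as many replicate 3 peaks as replicate 2 has (23058), the replicate 3 only regions numbered 47952, 11216 and 19005, with median lengths of 455, 614 and 555 bp and median spacings of 25.7, 127 and 70.1 kb (294, 265 and 67.0 kb in the comparison set). The share in protein-coding genes was then 27.1%, 31.8% and 28.98%, and the share within 10 kb of another TIMELESS library 11.4%, 5.54% and 25.5%. The excess in median length over the comparison set was 91, 238 and 212 bp. The share near gene ends was 0.615% at the q threshold. At the fold threshold and with fewer peaks, 2034 and 2583 coding genes held a region, and 13 and 16 promoters of at least 70% GC did, against 0 of the comparison set under every setting run. At these 2 settings the difference from the comparison set was −0.52 and 1.37 percentage points in protein-coding genes, the latter reversed, and −0.47 and −0.17 near gene ends. The cause was not tested.

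Merging peaks up to 500 bp apart gave a median length of 427 bp, an excess of 102 bp, a spacing of 19.7 kb and 28.8% within 10 kb of another library. Calling peaks shared only when 50% of the shorter one was covered gave 15.3 kb and 31.5%. Adding X and Y gave 15.9 kb and 24.8% in protein-coding genes. Leaving out replicate 1 or 2 gave spacings of 14.0 to 15.4 kb, shares within 10 kb of 9.06% to 28.8%, the lowest without replicate 2, and differences in protein-coding genes of −4.71 to −3.11 percentage points. Leaving out replicate 3 gives no value, since all the regions come from it. The density ratio of gene-free windows ran from 2.41 to 2.70 over the settings, and that around olfactory receptors from 1.13 to 1.51. Of 73 named genes, 64 changed their count of regions by over 1.5 times at the fold threshold, 60 with fewer replicate 3 peaks, 22 at the q threshold, 6 with peaks merged at 500 bp, 2 without replicate 2 and 0 under each of the other settings. Results on promoters, windows, receptor genes and differences between sets were added to the settings after the data were seen. No paired analysis was possible because the input, a single library, shares only 1 replicate number with the TIMELESS libraries and no test was run. Depth limits the comparison. Scaled to the tags of replicate 1, 42.1% of the regions reach the lowest pileup of a replicate 1 peak (7), so a missing peak there does not show that signal is absent.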
